A study of Arabidopsis thaliana with 6 samples.

Results

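The genes described here encode the enzymes of the Calvin cycle, which fixes CO2 in the chloroplast, and of photorespiration, which salvages the product of the oxygenase reaction of Rubisco. They were chosen as a fixed list of 33 Arabidopsis thaliana gene identifiers, 21 of the Calvin cycle and 12 of photorespiration, and all 33 were found among the 20754 genes of the deposited table. Transcript levels came from rosette leaves of 3 wild-type (WT) libraries and 3 libraries of *fer*, the loss-of-function mutant *fer-4* of the receptor kinase gene FERONIA (FER). WT was the accession Columbia-0, and *fer-4* carries a T-DNA insertion in FER, a whole-plant mutation represented by 1 allele. Both genotypes were untreated. The labels say that plants spent 10 days on plates in constant light and 21 days on soil at 22 °C with 8 h of light and 16 h of darkness, and they give an age of 4 weeks at harvest, less than those days add up to. The study's text gives long days and a somewhat greater age, and the table holds nothing that settles either. FER itself had 264.6, 265.5 and 286.4 normalized reads in WT and 5.95, 6.63 and 10.3 in *fer*.

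Rubisco joins CO2 to a sugar bisphosphate, and its small subunit is encoded by a family of nuclear RBCS genes. The resulting phosphoglycerate is reduced to triose phosphate, and most of the triose phosphate is recycled by aldolases, phosphatases, transketolase, an epimerase, an isomerase and phosphoribulokinase to remake the acceptor. When Rubisco takes oxygen in place of CO2 it makes phosphoglycolate, which passes through chloroplast, peroxisome and mitochondrion and is returned as glycerate. Glycine decarboxylase, a mitochondrial complex of P, T, H and L proteins, releases CO2 and ammonia on that route. In leaves these are among the most abundant transcripts of nuclear genes.

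Libraries were made with QuantSeq, which gives 1 fragment near the 3′ end of each transcript, so levels of different genes can be set side by side without division by length. The unit is the normalized read, a read count scaled by the authors so that each library totals between 4523902 and 4526129. The table's columns carry the genotype but no replicate number, and they are called column 1, 2 and 3 of each genotype in table order. Genotypes were compared with limma on log2(value + 1), and a gene was called when its Benjamini-Hochberg adjusted p over all 20754 genes was under 0.05. Over the whole table the median log2 fold change was 0.10, so that 0 is not the middle of the table. An exact permutation test of any 1 gene over 3 against 3 libraries cannot give a two-sided p below 0.1. The series calls the libraries biological replicates without saying which plants each came from. Limma combines each gene's spread among these 6 libraries with a prior variance taken from genes of similar level. Its SE, intervals and p-values are therefore not measures of that gene's own spread alone.

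Of the 33 genes, 23 were called decreased in *fer* (69.7%) and 1 was called increased, while 9 were not called. Across all genes tested, 4.52% were called decreased and 10.0% increased. High transcripts were called more often: among the 649 genes with a mean of at least 1000 normalized reads, a level chosen after seeing the data, 32.7% were called decreased and 17.6% increased. At that level 21 of 28 members were called decreased, against 30.8% of the other genes. The *fer* libraries lay below every WT library in 30 of the 33 genes (90.9%), where 10.5% of all genes and 284 of those 649 high transcripts did so. The median log2 fold change was -0.31 for the 33 genes, against -0.10 for all genes with a mean of at least 1000. No called decrease reached 2-fold. Limma fitted with 1 common prior variance in place of a trend with level, here named the fit without the trend, called 2 of the 33, GLDP1 and RBCS1B, where it called 1.07% of all genes decreased. The 23 genes had adjusted p-values from 0.046 to 0.28 in that fit. Under median of ratios scaling 30 of the 33 were called decreased, and 7.03% of all genes, and under quantile normalization 24 of the 33, and 7.00% of all genes.

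**Figure D1:**
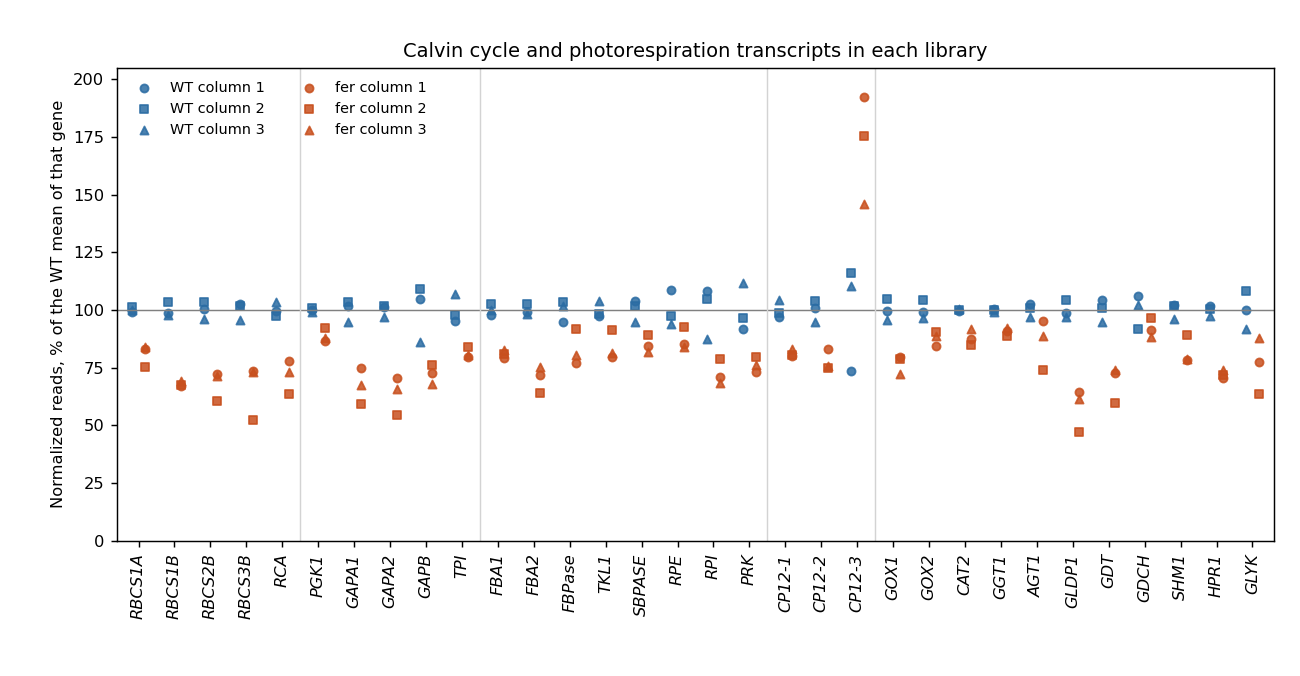
Normalized reads of each gene in each library, as a percent of the WT mean of that gene, for 32 genes in the order of their roles (blue, WT, and orange, *fer*, with 1 symbol per column, and PGLP1 left out because of its low values). Every *fer* point lies below every WT point of the same gene except in CP12-3, where the order is turned, and in GDCH, where the genotypes overlap.

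Together the 21 Calvin cycle genes took up 4.18% to 4.29% of the normalized reads of a WT library and 2.94% to 3.30% of those of a *fer* library. The 12 photorespiration genes held 0.940% to 0.988% in WT and 0.689% to 0.758% in *fer*. In these whole-leaf samples, fewer cells of a type and less RNA per cell cannot be told apart. The RBCS genes made up 2.58% ± 0.044 of WT reads and 1.94% ± 0.18 of *fer* reads (SD, n = 3). Without them the Calvin cycle genes still held 1.65% ± 0.016 in WT and 1.24% ± 0.030 in *fer*.

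Rubisco and its activase fell as a group, with all 5 genes called decreased. Of all genes 4.52% were called decreased, and of those with a mean of at least 1000, 32.7%. RBCS1A (AT1G67090, chromosome 1, from 25048158 to 25049667, minus strand, in TAIR10.1) encodes a small subunit and was the most abundant transcript of every library. It had 68078, 69715 and 68692 normalized reads in WT columns 1, 2 and 3, and 57338, 51817 and 57885 in *fer* columns 1, 2 and 3. The genotypes did not overlap, and *fer* reached 80.9% of the WT mean (log2 fold change -0.31 ± 0.073 SE, limma adjusted p = 0.0067). Without WT column 2 its adjusted p in limma was 0.067, and under quantile normalization the difference was 0 by construction, because this gene ranked first in every library.

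RBCS1B, RBCS2B and RBCS3B are neighbours within 8333 bases of chromosome 5 (15376988 to 15385320, all on the minus strand) and encode the other small subunits. RBCS3B (AT5G38410), the second of the family by level, had 35235, 35051 and 32911 normalized reads in WT and 25232, 18073 and 25198 in *fer*. Its lowest library was *fer* column 2, well below the other *fer* libraries, and its log2 fold change was -0.61 ± 0.10 SE (limma adjusted p = 2.96e-04). RBCS2B (AT5G38420) had 7349, 7571 and 7041 normalized reads in WT and 5284, 4423 and 5229 in *fer*. RBCS1B (AT5G38430) varied least of the family in *fer*, with 6161, 6432 and 6096 normalized reads in WT and 4172, 4211 and 4318 in *fer*. The log2 fold changes of RBCS2B and RBCS1B were -0.56 ± 0.078 and -0.56 ± 0.068 (SE), and *fer* reached 68.0% of WT in each. None of the 50-base windows in the last 300 transcript bases of the RBCS genes occurs elsewhere in the genome as an exact copy. Over the last 500 bases, 19.5% of RBCS2B windows also occur in RBCS1B or RBCS3B. Near copies were not searched for and the authors' alignment allowed mismatches, so exchange of reads between these genes was not tested.

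The composition of the small subunit pool also differed. RBCS1A supplied 58.3%, 58.7% and 59.9% of RBCS reads in the WT libraries and 62.3%, 66.0% and 62.5% in the *fer* libraries. RBCS3B supplied 28.7% to 30.2% in WT and 23.0% to 27.4% in *fer*, and RBCS2B 6.14% to 6.37% and 5.63% to 5.74%. The genotypes did not overlap in these 3 shares, whereas the RBCS1B shares overlapped, at 5.27% to 5.42% and 4.53% to 5.36%.

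**Figure D2:**
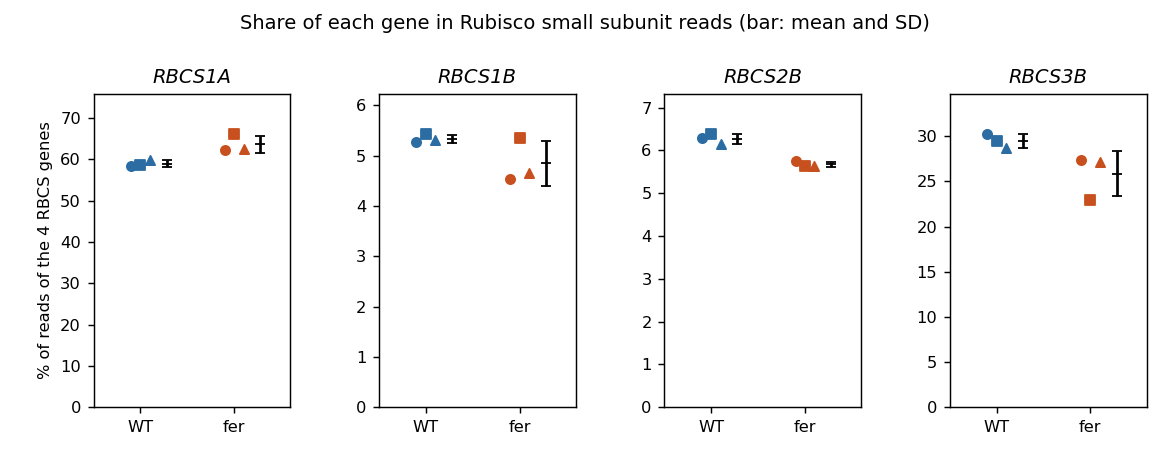
Share of each RBCS gene in the summed normalized reads of the 4 genes, in percent, for each library (points, with 1 symbol per column), with the mean and SD (n = 3) beside them. RBCS1A takes a larger share in every *fer* library than in any WT library, while RBCS2B and RBCS3B take smaller ones.

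RCA (AT2G39730), Rubisco activase, removes inhibitory sugar phosphates from the enzyme. It had 10695, 10471 and 11125 normalized reads in WT and 8361, 6831 and 7864 in *fer* (log2 fold change -0.49 ± 0.078 SE, limma adjusted p = 1.80e-04). The RCA reads per RBCS1A read were 0.156 ± 0.0059 RCA reads in WT and 0.138 ± 0.0072 in *fer* (SD, n = 3), and the genotypes did not overlap.

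In the reduction phase 4 of 5 genes were called decreased. The shares of all genes and of high transcripts called decreased were 4.52% and 32.7%. GAPA1 and GAPA2 encode the A subunit, and GAPB the B subunit, of the chloroplast glyceraldehyde phosphate dehydrogenase. GAPA2 (AT1G12900) had 6554, 6586 and 6271 normalized reads in WT and 4570, 3512 and 4244 in *fer*, the largest fall of the Calvin cycle genes (log2 fold change -0.66 ± 0.085 SE, limma adjusted p = 1.65e-05). GAPA1 (AT3G26650) moved alongside, with 6006, 6117 and 5618 normalized reads in WT and 4426, 3513 and 4003 in *fer* (log2 fold change -0.58 ± 0.082 SE). GAPB (AT1G42970) had 5948, 6210 and 4890 normalized reads in WT and 4138, 4336 and 3864 in *fer* (log2 fold change -0.46 ± 0.086 SE). Here WT column 3 was the low WT library, and the highest *fer* library was column 2, the one in which both GAPA genes were lowest. The reads of GAPA1 and GAPA2 were nearly equal, GAPA1 supplying 47.3% to 48.2% of their sum in WT and 48.5% to 50.0% in *fer*.

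TPI, the chloroplast triose phosphate isomerase, ranged from 2100 to 2362 normalized reads in WT and from 1754 to 1853 in *fer* (log2 fold change -0.30 ± 0.075 SE, limma adjusted p = 0.011). Leaving out *fer* column 1 or *fer* column 3 ended the call of TPI, with adjusted p-values of 0.054 and 0.059 in limma. PGK1, the phosphoglycerate kinase, was not called, although its 3 *fer* libraries (2246 to 2393 normalized reads) lay below its WT libraries (2579 to 2618). Its log2 fold change was -0.17 (95% interval -0.32 to -0.025), with an adjusted p of 0.11 in limma.

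Of 8 genes of the regeneration phase, 6 were called decreased, beside 4.52% of all genes and 32.7% of high transcripts. FBA1 and FBA2 encode chloroplast aldolases with nearly equal reads in WT. FBA2 (AT4G38970) had 8849, 9172 and 8789 normalized reads in WT and 6407, 5703 and 6726 in *fer* (log2 fold change -0.51 ± 0.074 SE). FBA1 (AT2G21330) had 8946, 9379 and 9142 normalized reads in WT and 7248, 7406 and 7586 in *fer* (log2 fold change -0.30 ± 0.067 SE). The share of FBA1 in their sum was 50.3% to 51.0% in WT and 53.0% to 56.5% in *fer*, so that the balance tilted toward FBA1 in every *fer* library.

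Phosphoribulokinase, which makes the CO2 acceptor, is encoded by PRK (AT1G32060), with 4907, 5158 and 5964 normalized reads in WT and 3900, 4262 and 4070 in *fer*. Its log2 fold change was -0.39 ± 0.079 SE (limma adjusted p = 0.0021). RPI, ribose phosphate isomerase, ranged from 1015 to 1257 normalized reads in WT and from 797 to 919 in *fer* (log2 fold change -0.45 ± 0.093 SE). The chloroplast FBPase, which yields fructose phosphate, and TKL1, transketolase, had smaller log2 fold changes of -0.27 ± 0.085 and -0.25 ± 0.076 (SE), with adjusted p-values of 0.037 and 0.031 in limma. These calls were fragile. FBPase lost its call without WT column 2, WT column 3, *fer* column 1 or *fer* column 3 (adjusted p from 0.096 to 0.17 in limma), and TKL1 lost it without any library but *fer* column 2 (0.053 to 0.14). SBPASE, sedoheptulose bisphosphatase, and RPE, the epimerase, were not called, with log2 fold changes of -0.23 (95% interval -0.40 to -0.066) and -0.20 (95% interval -0.37 to -0.027). Neither overlapped between genotypes: SBPASE ranged from 1034 to 1131 normalized reads in WT and from 891 to 970 in *fer*, and RPE from 1378 to 1588 and from 1228 to 1354.

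CP12 proteins link glyceraldehyde phosphate dehydrogenase and phosphoribulokinase into an inactive complex in the dark. CP12-1 (AT2G47400) supplied 90.5% to 91.9% of the family's reads in all 6 libraries, with 8602, 8780 and 9264 normalized reads in WT and 7119, 7151 and 7363 in *fer* (log2 fold change -0.30 ± 0.068 SE). CP12-2 (AT3G62410) had 785 to 860 normalized reads in WT and 617 to 686 in *fer* (log2 fold change -0.36 ± 0.085 SE). CP12-3 (AT1G76560) was the 1 gene of the 33 that was called increased. It had 21.7, 34.2 and 32.5 normalized reads in WT and 56.7, 51.7 and 43.0 in *fer* (log2 fold change 0.77 ± 0.24 SE, limma adjusted p = 0.038). The call was lost without any 1 library and under either other scaling (adjusted p from 0.054 to 0.15 in limma), as well as without the trend (0.11), and at this level CP12-3 supplied 0.229% to 0.354% of CP12 reads in WT and 0.536% to 0.721% in *fer*.

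**Figure D3:**
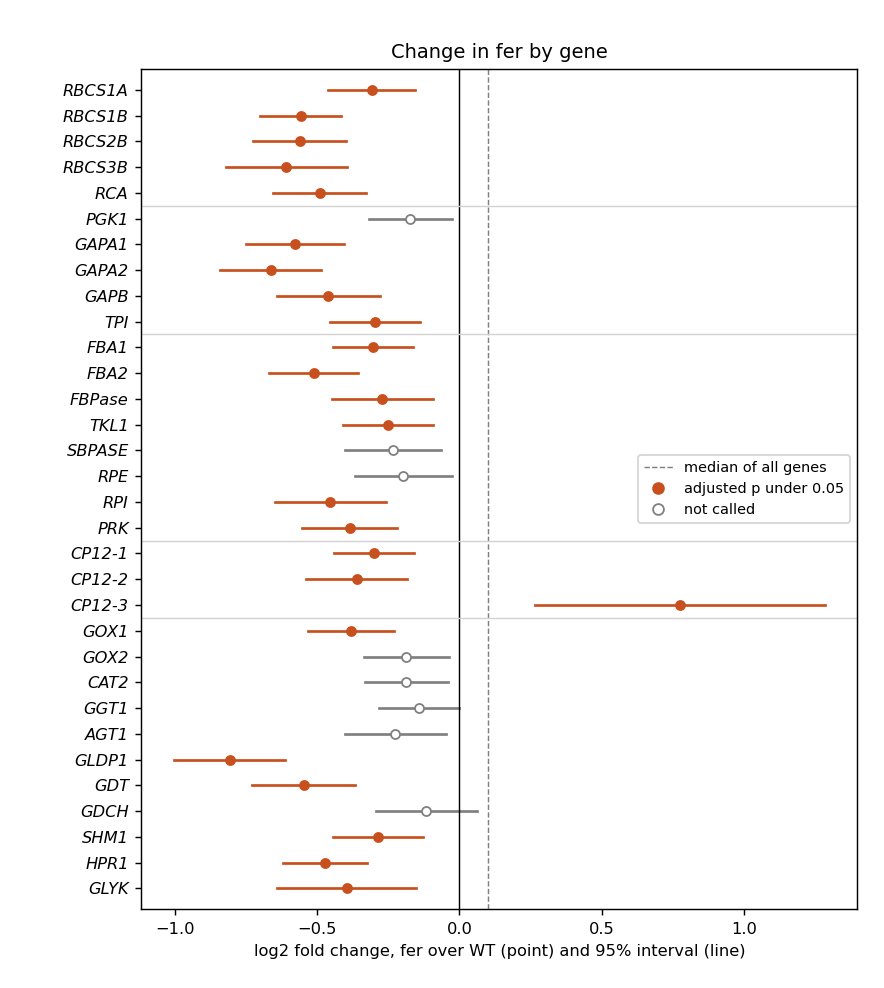
Log2 fold change of *fer* over WT (points) with its unadjusted 95% interval (lines) for 32 genes in the order of their roles, from limma on 3 WT and 3 *fer* libraries, with PGLP1 left out because of its low values. Orange points were called, open grey points were not, and the dashed line marks the median of all genes at 0.10. CP12-3 is the only point to the right of 0, and GLDP1 lies farthest to the left.

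Of the 12 photorespiration genes 6 were called decreased and none increased, and their median log2 fold change was -0.26. Called decreased were 4.52% of all genes and 32.7% of those with a mean of at least 1000. An unadjusted p under 0.05 was reached by 10 of the 12, by 5614 of all 20754 genes and by 411 of the 649 high transcripts described above. The largest fall of all 33 genes was that of GLDP1 (AT4G33010, chromosome 4, 15926652 to 15931422 on the minus strand), which encodes the P protein, the decarboxylating subunit of glycine decarboxylase. It had 12295, 13005 and 12079 normalized reads in WT and 8039, 5885 and 7627 in *fer*. All 3 *fer* libraries lay far below WT, column 2 lowest, and *fer* reached 57.7% of the WT mean (log2 fold change -0.81 ± 0.093 SE, limma adjusted p = 4.74e-06). GLDP1 held its call without each library in turn and without the trend, where its adjusted p was 0.046.

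The log2 fold changes of the other subunits were smaller in size, and their difference from GLDP1 was not tested. GDT (AT1G11860), the T protein, had 2444, 2361 and 2215 normalized reads in WT and 1699, 1395 and 1727 in *fer* (log2 fold change -0.55 ± 0.086 SE, limma adjusted p = 1.67e-04). GDCH (AT2G35370), an H protein that carries the intermediate between subunits, had 981, 849 and 945 normalized reads in WT and 846, 894 and 816 in *fer*. Its genotypes overlapped, and its log2 fold change was -0.12 (95% interval -0.29 to 0.061) with an adjusted p of 0.41 in limma. GDH3, another H protein gene of similar level, had 946, 980 and 889 normalized reads in WT and 728, 762 and 776 in *fer* (log2 fold change -0.31 ± 0.082 SE, limma adjusted p = 0.013), a call that ended when WT column 2 (0.079) or *fer* column 1 (0.064) was left out. There were 12.5 to 15.3 GLDP1 reads per GDCH read in the WT libraries and 6.58 to 9.50 in the *fer* libraries, without overlap. These photorespiration genes had the largest and the smallest log2 fold change in size, so a gap in their ratio follows from the choice. The ratios of GLDP1 to GDT, SHM1 or GLYK and of GOX1 to CAT2 did not overlap either. Those of GAPA1 to GAPB, GAPB to PRK and CP12-1 to PRK did. SHM1 (AT4G37930), the hydroxymethyltransferase that works with the complex to make serine, ranged from 2486 to 2644 normalized reads in WT and from 2027 to 2309 in *fer* (log2 fold change -0.29 ± 0.076 SE, limma adjusted p = 0.015). SHM1 was not called without WT column 1, WT column 2, *fer* column 1 or *fer* column 3, at adjusted p-values from 0.053 to 0.093.

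Among the peroxisomal steps, HPR1 (AT1G68010), hydroxypyruvate reductase, was both decreased and even, with 2705, 2669 and 2590 normalized reads in WT and 1876, 1904 and 1964 in *fer* (log2 fold change -0.47 ± 0.071 SE). GOX1 and GOX2 encode glycolate oxidase and stand 377 bases apart on the plus strand of chromosome 3. GOX1 (AT3G14420) had 5565, 5850 and 5351 normalized reads in WT and 4457, 4409 and 4027 in *fer* (log2 fold change -0.38 ± 0.072 SE). GOX2 (AT3G14415) had 3043, 3199 and 2956 normalized reads in WT and 2587, 2777 and 2714 in *fer* and was not called, with a log2 fold change of -0.19 (95% interval -0.34 to -0.038). The share of GOX1 in their sum was 64.4% to 64.7% in WT and 59.7% to 63.3% in *fer*, and none of the 50-base windows near either 3′ end occurs elsewhere.

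The aminotransferases and the catalase of this route were not called. CAT2, which removes the peroxide made by glycolate oxidase, had 4540, 4562 and 4575 normalized reads in WT and 3976, 3860 and 4192 in *fer*, with a log2 fold change of -0.19 (95% interval -0.33 to -0.042). GGT1, the glutamate:glyoxylate aminotransferase, ranged from 4772 to 4829 normalized reads in WT and from 4271 to 4419 in *fer*, at 90.6% of the WT mean. AGT1, the serine:glyoxylate aminotransferase, ranged from 4137 to 4376 in WT and from 3162 to 4065 in *fer*, and *fer* column 2 set its change: the log2 fold change was -0.23 with all libraries and -0.12 without that column. GLYK, glycerate kinase, which closes the route, had 446, 482 and 408 normalized reads in WT and 345, 283 and 392 in *fer* (log2 fold change -0.40 ± 0.12 SE, limma adjusted p = 0.026). It was not called without WT column 1, WT column 2, *fer* column 1 or *fer* column 2, at adjusted p-values from 0.070 to 0.15.

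PGLP1 (AT5G36700), phosphoglycolate phosphatase, could not be measured here. All 251 of the 50-base windows in its last 300 transcript bases also occur in AT5G36790, a copy on the same chromosome, and 100% of the windows remain shared over the last 500 bases. The table gives PGLP1 1.26, 3.02 and 2.27 normalized reads in WT and 0.046, 3.15 and 3.85 in *fer*, near or under a floor of 3, and its log2 fold change of -0.16 has a 95% interval from -1.56 to 1.23. AT5G36790 is as low, at means of 4.68 in WT and 1.42 in *fer*.

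The libraries of neither genotype were equal in level. Leaving PGLP1 aside, the median coefficient of variation over the other 32 genes was 3.88% in WT and 5.94% in *fer*, and 20 of the 32 varied more in *fer*. The same count over all genes was not taken. In WT, column 3 was the lowest library for 21 of the 33 genes and column 2 the highest for 17. Within *fer*, column 1 was the lowest for 12 genes, column 3 for 7 and column 2 for 14. In RBCS2B, RBCS3B, RCA, GAPA1, GAPA2, FBA2, AGT1, GLDP1, GDT and GLYK its deviation from the *fer* mean ran from -0.135 to -0.32 on the log2 scale, and in RBCS1A, CP12-2, CAT2 and GGT1 from -0.028 to -0.102. It was the highest for 12 others, PGK1, GAPB, TPI, FBPase, TKL1, SBPASE, RPE, RPI, PRK, SHM1, GDCH and GOX2, by 0.045 to 0.147. Without that column the log2 fold changes of GLDP1, GAPA2 and RBCS3B were -0.67, -0.56 and -0.45, and each was still called, with adjusted p-values of 9.1e-06, 6.0e-05 and 3.3e-04 in limma. With *fer* column 2 left out, 23 of the 33 genes were called decreased, as many as with all libraries.

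Because most of these genes fell together, the 250 bases before each annotated gene start (TAIR10.1, RefSeq) were searched on both strands for the letters of 4 elements known from light-regulated and clock-regulated plant genes. The G-box CACGTG was found in 5 of the 33 windows (15.2%) and in 6.49% of 27443 windows of all protein-coding genes. The I-box core GATAAG was in 15.2% of the members' windows and 12.3% of all windows, the GT-1 box GGTTAA in 15.2% and 14.6%, and the evening element AAATATCT in 0 of 33 and 4.79%. The windows with a G-box were those of RBCS2B, FBPase, PRK, GGT1 and GLDP1, and only RBCS2B and FBPase held an I-box core as well. None of the 4 sets of letters overlapped another in the windows shown, and 12 of the 33 windows overlap a neighbouring gene, these 3 not among them. The windows of RBCS2B and FBPase are shown for their combination of both elements, and that of GLDP1 because this gene fell most. Each is written 5′ to 3′ on the strand of the gene, with matches on either strand in capitals, and ends at the base before the gene start. They lie at chr5:15382072-15382321 (minus strand), chr3:20016587-20016836 (plus strand) and chr4:15931423-15931672 (minus strand).
RBCS2B: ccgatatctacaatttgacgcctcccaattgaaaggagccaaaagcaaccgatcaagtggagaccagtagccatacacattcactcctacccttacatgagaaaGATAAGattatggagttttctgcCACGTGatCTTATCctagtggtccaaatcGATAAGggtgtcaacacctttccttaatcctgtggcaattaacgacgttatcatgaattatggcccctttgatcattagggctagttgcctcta
FBPase: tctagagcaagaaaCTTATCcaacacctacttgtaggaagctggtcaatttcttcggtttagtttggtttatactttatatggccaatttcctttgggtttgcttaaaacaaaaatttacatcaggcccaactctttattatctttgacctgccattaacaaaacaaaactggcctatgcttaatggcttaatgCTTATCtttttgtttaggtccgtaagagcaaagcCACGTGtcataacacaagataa
GLDP1: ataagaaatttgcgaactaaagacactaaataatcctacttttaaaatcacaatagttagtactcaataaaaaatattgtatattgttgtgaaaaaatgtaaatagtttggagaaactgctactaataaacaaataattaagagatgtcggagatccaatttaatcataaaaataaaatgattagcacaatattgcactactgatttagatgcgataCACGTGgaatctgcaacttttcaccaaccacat
Counting the base before the gene start as position -1, the G-box begins at -123 in RBCS2B, at -22 in FBPase and at -33 in GLDP1. These matches describe the letters of the windows and no binding was measured.

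Other genes of the same pathways were taken from lists compiled with earlier results of these data known. Of 20 further photorespiration genes, 5 were called decreased and 3 increased, with a median log2 fold change of -0.077. Across all genes 4.52% were called decreased and 10.0% increased, and 32.7% and 17.6% of genes with a mean of at least 1000. PLGG1, the plastid transporter that exports glycolate and imports glycerate, had 497, 504 and 518 normalized reads in WT and 282, 160 and 264 in *fer* (log2 fold change -1.15 ± 0.15 SE, limma adjusted p = 2.46e-05). *fer* column 2 was again the lowest. GLDP2, the second P protein gene, had 1707, 1766 and 1678 normalized reads in WT and 1272, 793 and 1093 in *fer* (log2 fold change -0.73 ± 0.12 SE). CAT3, another catalase, was higher in *fer*, at 7398 to 8319 normalized reads in WT and 11057 to 13334 in *fer* (log2 fold change 0.64 ± 0.079 SE). PMDH1, a peroxisomal malate dehydrogenase, rose from a mean of 110 to 179 normalized reads (log2 fold change 0.70 ± 0.13 SE). Limma without the trend gave PLGG1, GLDP2 and CAT3 adjusted p-values of 0.053, 0.096 and 0.052.

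Where a step is encoded by several copies, the copies were set side by side, in pairs picked after their values were seen. Called changes in opposite directions were found for mtLPD1 and mtLPD2, which encode the L protein (log2 fold changes of -0.32 and 0.41), for PMDH2 and PMDH1 (-0.26 and 0.70), for TKL1 and TKL2 (-0.25 and 1.02) and for the plastid aldolases FBA2 and FBA3 (-0.51 and 0.44). In each of these pairs the copy that fell was the more abundant one, with TKL2 at a mean of 19.0 normalized reads in WT against 2806 for TKL1. Median of ratios scaling left PMDH1 called but not mtLPD2, TKL2 or FBA3, at adjusted p-values of 0.13, 0.054 and 0.088 in limma, and the call of PMDH2 ended when *fer* column 1, *fer* column 3 or WT column 2 was left out (0.051 to 0.098). With 1 library removed, mtLPD2 stayed called only if that was *fer* column 2 (adjusted p otherwise 0.058 to 0.14 in limma). FBA3 and TKL2 stayed called only without WT column 2 or *fer* column 1 (otherwise 0.071 to 0.18). TKL1 was fragile as described above, whereas mtLPD1, FBA2 and PMDH1 held their calls without each library in turn. Of the genes in these pairs, limma without the trend called PMDH1 alone (adjusted p = 0.035). The difference between the copies of a pair was not tested.

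**Figure D4:**
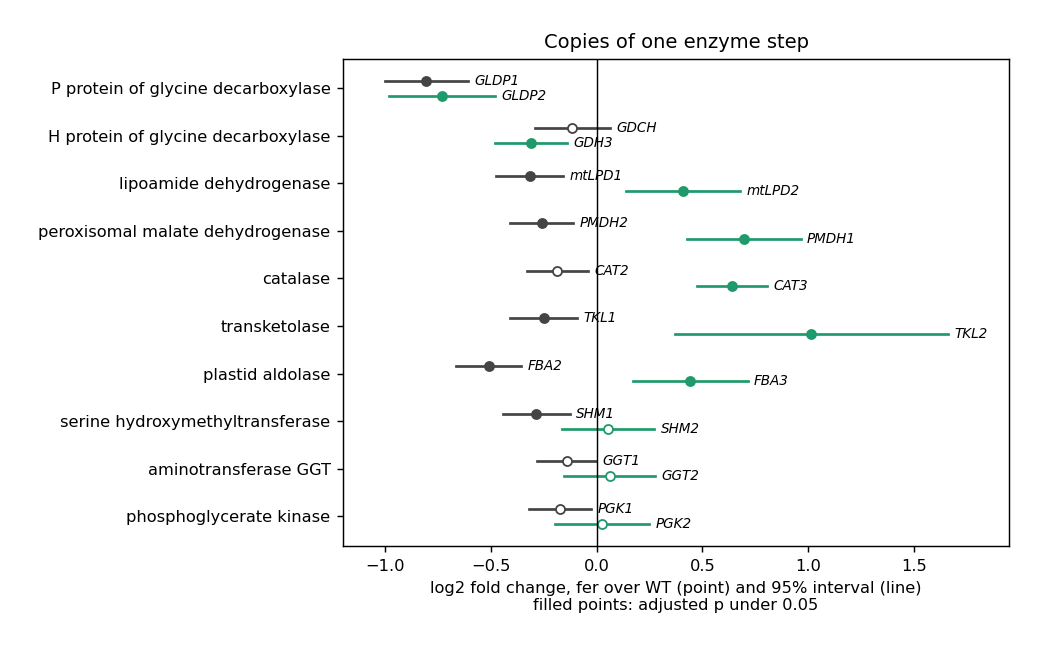
Log2 fold change of *fer* over WT (points) with its unadjusted 95% interval (lines) for pairs of genes that encode the same enzyme step, from limma on 3 WT and 3 *fer* libraries. Filled points were called, and dark and green only separate the copies of a pair. Both P protein genes lie left of 0, while mtLPD2, PMDH1, CAT3, TKL2 and FBA3 lie right of it with their partners on the left. Of those partners CAT2 was not called. SHM2, GGT2 and PGK2, none of them called, also lie slightly right of 0 with their partners on the left.

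The lists in this paragraph stand beside 4.52% of all genes called decreased and 10.0% called increased. Among genes with a mean of at least 1000 these shares were 32.7% and 17.6%. Of 10 genes for Rubisco assembly, 5 were called decreased and none increased, and their median log2 fold change was -0.23. An unadjusted p under 0.05 was reached by 7 of the 10, a share near the 411 of 649 among genes with a mean of at least 1000. CPN60B2, CPN60B1 and CPN60A1, subunits of the chloroplast chaperonin that folds the large subunit, had log2 fold changes of -0.38, -0.34 and -0.26, and RAF2, an assembly factor, had -0.31. Leaving out *fer* column 3 ended the call of each of these 4 genes, at adjusted p-values from 0.059 to 0.16 in limma. CPN60B1, CPN60A1 and RAF2 also lost theirs without WT column 2 or *fer* column 1 (0.051 to 0.12). CPN60A1 and RAF2 lost theirs without WT column 3 as well (0.067 and 0.18). Without the trend these 4 genes were not called (0.15 to 0.29). Of 10 further genes for Calvin cycle enzymes, triose phosphate export and thioredoxin control, 2 were called decreased, 2 increased (FBA3 and TKL2), and the median was -0.10. TRXF1 and TRXF2, thioredoxins that switch several of these enzymes on in the light, were the decreased ones, with log2 fold changes of -0.41 and -0.28, the second not called without any 1 library (adjusted p from 0.065 to 0.12 in limma). Among 10 cytosolic counterparts in glycolysis and sucrose synthesis, 2 were called decreased, and the median was 0.067. FBA5, an aldolase, had 2546, 2896 and 3169 normalized reads in WT and 1267, 1207 and 1161 in *fer* (log2 fold change -1.24 ± 0.084 SE), and GAPC2, a cytosolic glyceraldehyde phosphate dehydrogenase, one of -0.31 ± 0.068.

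Markers of senescence, cell types and the clock were also read, and they did not all move in the same direction. Across all genes 4.52% were called decreased and 10.0% increased. The 6 senescence and chlorophyll breakdown markers were all called increased, and their summed level was 334 to 396 normalized reads in WT and 836 to 925 in *fer*. SAG12, a protease gene of late senescence, had at most 0.39 normalized reads in a WT library and 25.3 to 48.2 in *fer*. With WT set to a floor of 3 per library, its *fer* mean of 36.4 was 12.1-fold that of WT, a lower bound for the means. The call of PAO, a chlorophyll breakdown gene, was lost without any 1 library, at adjusted p-values from 0.078 to 0.11 in limma. Of 4 mesophyll markers 2 were called decreased (CA1 and LHCB1.3), with a summed level of 91025 to 94127 normalized reads in WT and 75108 to 76446 in *fer*. LHCB1.3 weighed most in that sum, at means of 49978 in WT and 40990 in *fer*. LHCB5 and LHCA3 were not called, at 92.3% and 91.5% of their WT means. Of 5 epidermis and trichome markers 2 were decreased (ATML1 and PDF2), and their sum was 1720 to 1826 normalized reads in WT and 1379 to 1499 in *fer*. Guard cell markers summed to 417 to 459 and 377 to 462 normalized reads with none of 4 called, vascular markers to 956 to 1004 and 876 to 916 with 1 of 5 called in each direction (SEOR1 down and IRX3 up), and markers of dividing cells to 127 to 159 and 118 to 146 with none of 4 called. Without any 1 library IRX3 was not called (adjusted p from 0.062 to 0.17 in limma), nor under median of ratios scaling (0.078) or quantile normalization (0.13). PDF2 lost its call without WT column 2, WT column 3, *fer* column 1 or *fer* column 2 (0.058 to 0.077), SEOR1 without WT column 3 (0.084) or *fer* column 3 (0.053), and LHCB1.3 without *fer* column 1 (0.054) or under quantile normalization (0.95). The inflorescence markers LFY, AG and PI summed to at most 8.33 normalized reads in any library. AG was called decreased, at 3.01 to 3.40 normalized reads in WT and at most 0.034 in *fer*, values near or under the floor of 3, and lost the call without any 1 library (adjusted p from 0.052 to 0.079 in limma). Of 8 clock genes only LHY was called (log2 fold change 0.35 ± 0.10 SE). Its call was lost without WT column 1, WT column 2, *fer* column 1 or *fer* column 3 (adjusted p from 0.082 to 0.14 in limma). It was also lost under median of ratios scaling (0.12), under quantile normalization (0.1) and without the trend (0.23). The part of senescence, cell makeup or time of day in the fall of the photosynthetic genes was not tested.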

How the data were processed

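Rosette leaf RNA of 3 WT and 3 *fer* samples was sequenced with QuantSeq in 2 merged runs of single-end reads of 50 bases. Per the labels and the study's methods, the authors aligned reads to TAIR10 with STAR under a relaxed mismatch limit and counted them per gene with htseq-count in intersection-nonempty mode. The use of strand and the tool versions are not given in the sources used here, and edgeR is named in the submitters' processing notes. The deposited signal is a normalized read number. Per the file headers and names it was scaled by TMM with a minimum of 1, and no gene stays under 1.55 in all 6 libraries. These values are not whole reads, so the original depth is unknown and neither count tests nor counting intervals were used. The deposited table also holds a column of the authors' own log2 fold changes, which was not used.

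Values were tested as log2(value + 1) with limma 3.58.1 in R 4.3.3 (lmFit, eBayes with trend, two-sided, Benjamini-Hochberg adjustment), without covariates, on the whole table. A fold change on this scale understates the change of low genes. The script was tested on simulated data. Columns of a genotype served as its replicates, and 0 value columns belonged to no group. No 2 columns held the same values. Gene positions, promoter windows and symbols came from RefSeq on TAIR10.1, whose locus tags matched all 33 genes. Protein sequences were not used here. Alternatives were a pseudocount of 0.1, a minimum mean of 5, median of ratios and quantile scaling, limma without the trend, an adjusted p under 0.01 and leaving out each library. All 33 members are named, with FER and up to 4 called genes of each other list with the largest changes. For 1 gene of the Rubisco assembly list, values are not reported here. Further genes of the pathways named beside them, such as the copies in pairs, were chosen after their values were seen. Members and lists were chosen with earlier results of these data known.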

Additional observations from a re-analysis of the deposited data

How the results depend on the processing

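No paired analysis was possible because no column names its replicate. The number of genes called decreased among the 33 was 23, and 18 to 23 when 1 library was left out, 30 under median of ratios scaling, 24 under quantile normalization and 18 at an adjusted p under 0.01 in limma. Limma without the trend called 2, and the cause was not tested. These scalings shifted the table's median log2 fold change by -0.097 and -0.14, and that of the 33 genes was -0.41 and -0.37 under them. The 1 gene called increased, CP12-3, was lost (0 called) under leave-one-out, both other scalings, the fit without the trend and an adjusted p under 0.01. All genes called were 3021, against 1130 without the trend, 1682 at an adjusted p under 0.01 and 1907 to 2503 with 1 library left out. The fall in read share was -0.93 to -1.11 percentage points for the Calvin cycle and -0.21 to -0.25 for photorespiration with 1 library left out. PGLP1 alone changed sign, to 0.024 without WT column 2 and 0.54 without *fer* column 1, and ran from -0.57 to 0.54 with 1 library left out. Members with at least 10% of their 50-base windows elsewhere were 1 over the last 300 bases and 2 over the last 500 bases, where 19.5% of RBCS2B windows also occur in RBCS1B or RBCS3B. FER ranged from -5.23 to -4.88, with an adjusted p of at most 0.00078 in limma. Of 33 called genes of the other lists, 24 were not called without the trend, 6 under median of ratios scaling and 7 to 15 without 1 library. Depth is unknown, and genes near 3 normalized reads, PGLP1 and SAG12 in WT among them, cannot be resolved.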
